A study of Mus musculus with 12 samples.

Results

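The 10 genes described here carry out antigen presentation by MHC class I molecules. They are the heavy chains H2-K1 and H2-D1, the light chain B2m, the peptide transporter subunits Tap1 and Tap2, the loading factor Tapbp, the immunoproteasome subunits Psmb8, Psmb9 and Psmb10, and the class I regulator Nlrc5. They were taken by name from the 55487 genes of the deposited count tables, and all 10 were found in both. The cells were B16F10, a mouse melanoma line known for low class I expression at rest. They had been transduced with lentiviral vectors, selected with puromycin, and carried either a control short hairpin (shCtr, genotype tag WT) or hairpin number 2 against Osgep (shOSGEP, genotype tag KD OSGEP). Osgep is the enzyme of the KEOPS complex that puts threonylcarbamoyladenosine (t6A) on tRNAs for codons starting with A. Ribosome-protected fragments (RPF) and total RNA were sequenced from 3 replicates of each genotype, giving 12 libraries in 4 groups, whose library names number 6 cell samples across both assays. All cells met cycloheximide at 10 µg/mL for 5 min before lysis for the RPF libraries, and 1 hairpin in 1 cell line was the model.

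Class I molecules show peptides from inside the cell to CD8 T cells. Proteasomes cut cytosolic proteins, and after interferon the catalytic subunits Psmb8, Psmb9 and Psmb10 replace Psmb5, Psmb6 and Psmb7 to form the immunoproteasome. The TAP transporter, a dimer of Tap1 and Tap2, pumps the peptides into the endoplasmic reticulum, where tapasin (Tapbp) bridges it to empty heavy chains bound to beta-2 microglobulin (B2m). Nlrc5 is a transactivator that acts on class I promoters through factors bound at the X and Y boxes, and the same genes respond to interferon regulatory factors such as IRF1 and to NF-kappa B. Tumour lines with low class I often keep these genes at a low but inducible level.

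On GRCm38, 7 of the 10 genes lie on chromosome 17 within a stretch of 1.35 Mb that belongs to the major histocompatibility complex. H2-K1 (ENSMUSG00000061232) spans 33996017 to 34000347 on the minus strand and H2-D1 (ENSMUSG00000073411) spans 35262730 to 35267499 on the plus strand. Psmb9, Tap1, Psmb8 and Tap2 sit side by side in 34.3 kb, and Tapbp lies outside that block. Psmb10 and Nlrc5 are on chromosome 8 and B2m is on chromosome 2. RefSeq promoter windows on GRCm38.p6 were found for 8 of the 10 genes, with no entry for Tap2 or Nlrc5. The 250 bases before the start are given for 4 genes, the heavy chains, B2m and Tap1. They were searched for letters of the boxes through which Nlrc5, interferon and NF-kappa B factors are known to act. Capitals mark letters that matched 1 of 5 motifs on either strand, namely GGGATTCCC (a kappa B site), AANNGAAA (a core bound by interferon regulatory factors), TTCNNNGAA (a gamma-activated site), TGACG (the core of the X2 box) and CCAAT (the Y box).
H2-K1, chr17:34000348-34000597, minus strand: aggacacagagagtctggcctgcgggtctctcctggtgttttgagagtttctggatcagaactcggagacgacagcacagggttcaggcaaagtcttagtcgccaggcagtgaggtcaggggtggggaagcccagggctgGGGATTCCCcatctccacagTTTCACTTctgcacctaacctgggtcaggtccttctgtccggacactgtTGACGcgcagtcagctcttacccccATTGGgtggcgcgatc
H2-D1, chr17:35262844-35263093, plus strand: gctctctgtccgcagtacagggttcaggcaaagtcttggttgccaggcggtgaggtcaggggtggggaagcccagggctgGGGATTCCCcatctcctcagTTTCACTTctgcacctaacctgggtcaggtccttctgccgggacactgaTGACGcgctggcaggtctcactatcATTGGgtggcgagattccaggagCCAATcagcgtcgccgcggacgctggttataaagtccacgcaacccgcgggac
B2m, chr2:122147437-122147686, plus strand: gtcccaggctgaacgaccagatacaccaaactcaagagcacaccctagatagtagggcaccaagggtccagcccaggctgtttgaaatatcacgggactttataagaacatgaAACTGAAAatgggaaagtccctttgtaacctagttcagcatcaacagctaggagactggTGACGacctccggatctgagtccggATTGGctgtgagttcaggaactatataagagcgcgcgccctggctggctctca
Tap1, chr17:34187306-34187555, plus strand: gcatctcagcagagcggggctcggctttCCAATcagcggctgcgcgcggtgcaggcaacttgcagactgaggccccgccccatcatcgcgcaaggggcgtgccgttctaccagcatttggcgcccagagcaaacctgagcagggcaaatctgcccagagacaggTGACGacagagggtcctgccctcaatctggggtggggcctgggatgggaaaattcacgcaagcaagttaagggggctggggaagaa
In H2-K1 and H2-D1 the 4 kinds of match stood in one order, kappa B, interferon factor core, TGACG and the inverted Y box ATTGG. The first letters of successive matches were 20, 49 and 25 bases apart in both genes, although the windows were shifted against each other because the annotated starts differ. B2m held the interferon factor core, TGACG and ATTGG, with 59 and 25 bases between their first letters. Tap1 held only CCAAT and TGACG, with CCAAT the farther from the start, unlike in the other windows given. The kappa B letters were found in 2 of the 8 windows and in 0.301% of 32851 RefSeq windows of the same length. AANNGAAA was found in 3 of 8 against 21.3% of all windows, TGACG in 5 of 8 against 17.8%, CCAAT in 6 of 8 against 33.8% and TTCNNNGAA in 1 of 8, Psmb8, against 7.02%. By RefSeq the starts of Tap1 and Psmb9 are 226 bases apart in opposite directions. The TGACG of the Tap1 window is therefore also that of the Psmb9 window on the other strand. These matches describe letters and not bound sites.

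Depth was 46.7 to 81.1 M counts for total RNA and 12.9 to 40.3 M for RPF, with M for mega, and 4.42 to 17.0 M of the RPF counts lay in protein-coding genes. Levels are counts per M (CPM) after TMM scaling within each assay, and values are given in the order of replicates 1, 2 and 3. Osgep, the targeted gene, measured 13.9, 15.7 and 15.3 CPM in shCtr total RNA and 0.589, 6.92 and 6.77 CPM in shOSGEP total RNA. The shOSGEP level was 0.0425, 0.440 and 0.444 times that of the control of the same number, and the groups did not overlap. In RPF Osgep measured 7.72, 7.27 and 4.71 CPM in shCtr and 4.87, 3.81 and 2.36 CPM in shOSGEP, or 0.631, 0.523 and 0.501 times the control, and the groups overlapped. Among the shOSGEP libraries replicate 1, which stood apart for the class I genes as well, thus had the least Osgep in total RNA and the most in RPF. Its fitted log2 change was −1.65 (SE 0.77, edgeR adjusted p = 0.975) in total RNA. The 8 melanocyte lineage markers summed to 9958 to 17613 CPM in shCtr total RNA, and to 2738 CPM in shOSGEP replicate 1 against 13180 and 11821 CPM in the other shOSGEP libraries. All 8 were detected, so the labelled cell type was borne out by its markers. The RPF library of shOSGEP replicate 1 also had the highest share of ribosomal RNA counts, 67.7%, against 27.7% to 44.8% in the other 5.

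The order of the 10 genes in resting control cells was examined first. Per kb of exon, B2m had the highest level in shCtr total RNA at 413 ± 59.0 CPM per kb (SD, n = 3 here and below). H2-D1 followed at 36.4 ± 17.9 CPM per kb and Tapbp at 18.0 ± 8.87 CPM per kb. Next came Psmb10 at 4.31 ± 0.158, H2-K1 at 2.60 ± 2.00, Tap2 at 2.39 ± 1.01 and Tap1 at 1.81 ± 0.738 CPM per kb, whose ranges each overlapped with the neighbour. Nlrc5 at 0.231 ± 0.0997 and Psmb9 at 0.166 ± 0.0954 CPM per kb overlapped as well. Psmb8 was last at 0.00345 ± 0.00299 CPM per kb, from 1, 1 and 0 reads. Ranges of neighbours did not overlap between B2m and H2-D1, Tapbp and Psmb10, Tap1 and Nlrc5, or Psmb9 and Psmb8. In bulk libraries a few cells with much class I RNA and many cells with a little cannot be told apart. Control cells therefore held the light chain at a level far above both heavy chains, H2-D1 above H2-K1, and next to no transcript of Psmb8. Among the 12139 protein-coding genes tested in total RNA, 99.4% lay below B2m, 89.8% below H2-D1 and 77.8% below Tapbp by mean level per kb in shCtr. The share below was 39.2% for Psmb10, 28.5% for H2-K1, 27.2% for Tap2, 23.4% for Tap1, 8.27% for Nlrc5 and 6.82% for Psmb9, while Psmb8 was under the filter. A low resting level thus held for H2-K1, the transporter, the inducible proteasome subunits and Nlrc5, and not for B2m, H2-D1 and Tapbp. In RPF, per kb of coding sequence, the order was the same except that Psmb9 (0.262 ± 0.0887 CPM per kb) stood before Nlrc5 (0.236 ± 0.136 CPM per kb), and B2m (111 ± 64.8 CPM per kb) overlapped with H2-D1 (28.5 ± 21.4 CPM per kb).

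**Figure D1:**
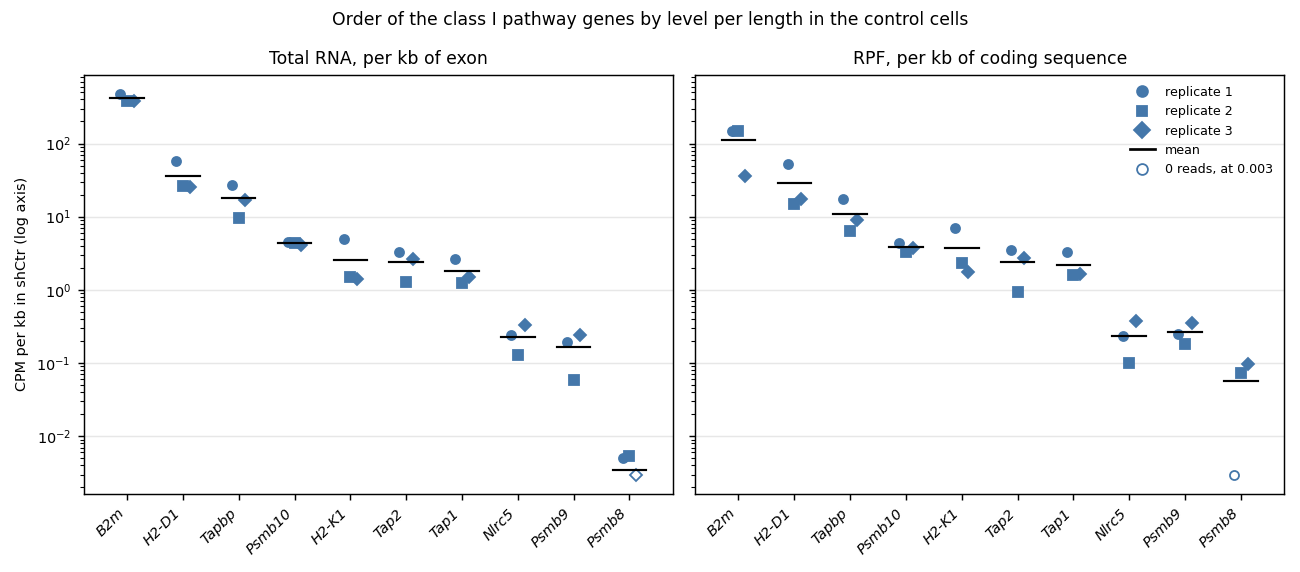
Level of the 10 class I pathway genes in shCtr cells in CPM per kb on a log axis, for total RNA (left, per kb of exon) and RPF (right, per kb of coding sequence). Symbols are the 3 replicates and lines their mean, and the control cells run from 413 CPM per kb for B2m to 0.00345 CPM per kb for Psmb8 in total RNA.

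H2-K1 and H2-D1 encode the classical heavy chains that bind peptide. In total RNA, H2-K1 measured 14.4, 4.36 and 4.13 CPM in shCtr and 114, 2.67 and 4.48 CPM in shOSGEP. The replicate 1 pair was high in both genotypes, and the shOSGEP library of that pair was 7.92 times its control. The ratios of the other pairs were 0.613 and 1.08, so the groups overlapped. In RPF, H2-K1 measured 8.28, 2.73 and 2.08 CPM in shCtr and 102, 1.92 and 2.41 CPM in shOSGEP, a ratio of 12.4 in replicate 1. For H2-K1 the fitted log2 change was 2.40 (SE 1.41, edgeR adjusted p = 0.975) for transcripts and 3.03 (SE 1.55, adjusted p = 0.9998) for footprints, and the other members tested had the same adjusted p.

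H2-D1 measured 147, 68.2 and 66.4 CPM in shCtr total RNA and 621, 59.3 and 85.2 CPM in shOSGEP total RNA. Again the replicate 1 pair stood above the others, with ratios of 4.22, 0.870 and 1.28. Its RPF levels were 60.7, 17.1 and 19.7 CPM in shCtr and 327, 17.4 and 21.4 CPM in shOSGEP, with ratios of 5.38, 1.02 and 1.08. Fits gave a log2 change of 1.44 (SE 0.90) for transcripts and 1.90 (SE 1.19) for footprints. H2-K1 and H2-D1 share sequence, and 281 of the 1590 windows of 30 bases in the longest H2-K1 transcript of GENCODE M21 also occur in H2-D1 transcripts. Over all other genes the share was 24.6% for H2-K1 and 28.7% for H2-D1, and since the treatment of reads with several matches is not given in the sources used here, the split of reads between class I genes is uncertain.

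B2m encodes the light chain that every class I molecule needs to reach the cell surface. Its total RNA level was 414, 327 and 325 CPM in shCtr and 853, 294 and 347 CPM in shOSGEP. The ratio in replicate 1 was 2.06, the smallest among the members with a ratio, and B2m was also the most abundant of them. In RPF, B2m measured 52.1, 53.7 and 12.9 CPM in shCtr and 216, 29.8 and 6.45 CPM in shOSGEP. Here the direction differed between replicates, with ratios of 4.14, 0.556 and 0.502. The B2m footprints of replicate 3 were the lowest in both genotypes, resting on 642 and 249 reads. The fitted log2 change in RPF was 1.09 (SE 1.16) without a term for the replicate number and 0.0056 (SE 0.71) with it.

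Tap1 and Tap2 form the peptide pump. Tap1 measured 14.5, 6.88 and 8.33 CPM in shCtr total RNA and 41.0, 6.21 and 10.9 CPM in shOSGEP total RNA, with ratios of 2.83, 0.903 and 1.31. Tap2 measured 12.4, 4.88 and 9.84 CPM in shCtr and 82.7, 4.60 and 13.0 CPM in shOSGEP, with ratios of 6.66, 0.942 and 1.32. For both subunits replicate 2 was the lowest library of either genotype and shOSGEP replicate 1 the highest. Tap1 footprints were 7.04, 3.46 and 3.54 CPM in shCtr and 24.6, 3.75 and 3.99 CPM in shOSGEP. Tap2 footprints were 7.32, 2.00 and 5.79 CPM in shCtr and 58.5, 3.47 and 6.38 CPM in shOSGEP. Both had more footprints in shOSGEP in 3 of 3 pairs, by ratios of 3.49, 1.08 and 1.13 for Tap1 and of 7.99, 1.73 and 1.10 for Tap2, while the groups overlapped. The fitted log2 changes were 0.97 (SE 0.69) for Tap1 and 1.89 (SE 0.99) for Tap2 for transcripts, and 1.19 (SE 0.79) and 2.16 (SE 1.08) for footprints.

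Tapbp encodes tapasin, which holds empty class I molecules next to the pump. It measured 99.2, 35.3 and 61.2 CPM in shCtr total RNA and 243, 41.3 and 58.8 CPM in shOSGEP total RNA, with ratios of 2.45, 1.17 and 0.961. Footprints measured 25.0, 9.09 and 12.8 CPM in shCtr and 71.5, 8.61 and 12.1 CPM in shOSGEP. Outside replicate 1, the ratios of Tapbp footprints were 0.947 and 0.941. Fitted log2 changes were 0.81 (SE 0.71) for transcripts and 0.97 (SE 0.84) for footprints.

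Among the immunoproteasome subunits, Psmb8 was close to undetected outside 1 sample. It had 1, 1 and 0 reads in shCtr total RNA and 78, 0 and 0 reads in shOSGEP total RNA, the 78 reads of replicate 1 corresponding to 1.21 CPM. Its footprints were 0, 1 and 4 reads in shCtr and 11, 0 and 1 reads in shOSGEP. The gene did not pass the filter on low counts in either assay and has no test, and with so few control reads no ratio is given. Psmb9 measured 0.714, 0.216 and 0.889 CPM in shCtr total RNA and 6.74, 0.233 and 0.946 CPM in shOSGEP total RNA, with ratios of 9.43, 1.08 and 1.06. Its footprints, 3, 2 and 12 reads in shCtr and 46, 5 and 22 reads in shOSGEP, did not pass the filter. The fitted log2 change of Psmb9 in total RNA was 2.12 (SE 1.18). By the gene bounds of GENCODE M21, Psmb9 and Tap1 overlap by 212 bases on opposite strands at their 5′ ends. Their RefSeq starts are instead 226 bases apart, without overlap. Whether the counting used strand is not given in the sources used here. The low level of Psmb9 beside Tap1 can therefore include reads of either gene.

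Psmb10, the remaining inducible subunit, had the least spread for its level in control total RNA. It measured 7.57, 7.42 and 7.05 CPM in shCtr total RNA and 25.8, 8.14 and 7.82 CPM in shOSGEP total RNA. All shOSGEP libraries were above all shCtr libraries, by ratios of 3.41, 1.10 and 1.11. It was the only member without overlap of the groups, and shOSGEP was above shCtr without overlap for 4.0% of the 14516 genes tested in total RNA. In RPF it measured 3.55, 2.67 and 3.10 CPM in shCtr and 18.1, 3.13 and 2.54 CPM in shOSGEP, where the groups overlapped. Transcripts had a fitted log2 change of 0.92 (SE 0.48) and footprints one of 1.33 (SE 0.77).

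Nlrc5 encodes a transactivator of class I genes. Its total RNA level was 2.02, 1.08 and 2.77 CPM in shCtr and 20.4, 1.68 and 3.35 CPM in shOSGEP. The ratio of 10.1 in replicate 1 was the highest among the members with a ratio in total RNA, followed by 1.55 and 1.21 in replicates 2 and 3. Footprints measured 1.41, 0.606 and 2.24 CPM in shCtr and 8.75, 1.33 and 3.45 CPM in shOSGEP, with ratios of 6.21, 2.20 and 1.54. Of the members tested in both assays, Nlrc5 alone was higher in shOSGEP in 3 of 3 pairs in each, although shCtr replicate 3 stood above shOSGEP replicate 2 in each. Psmb9, whose footprints did not pass the filter, was also higher in 3 of 3 pairs in each. Higher levels in 3 of 3 pairs held for 17.7% of genes in total RNA and 15.6% in RPF. The share for both assays at once was not computed. The fitted log2 change of Nlrc5 was 2.11 (SE 0.94) for transcripts and 1.63 (SE 0.78) for footprints. With the replicate block the RPF change was 1.45 (SE 0.50, edgeR adjusted p = 0.817).

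**Figure D2:**
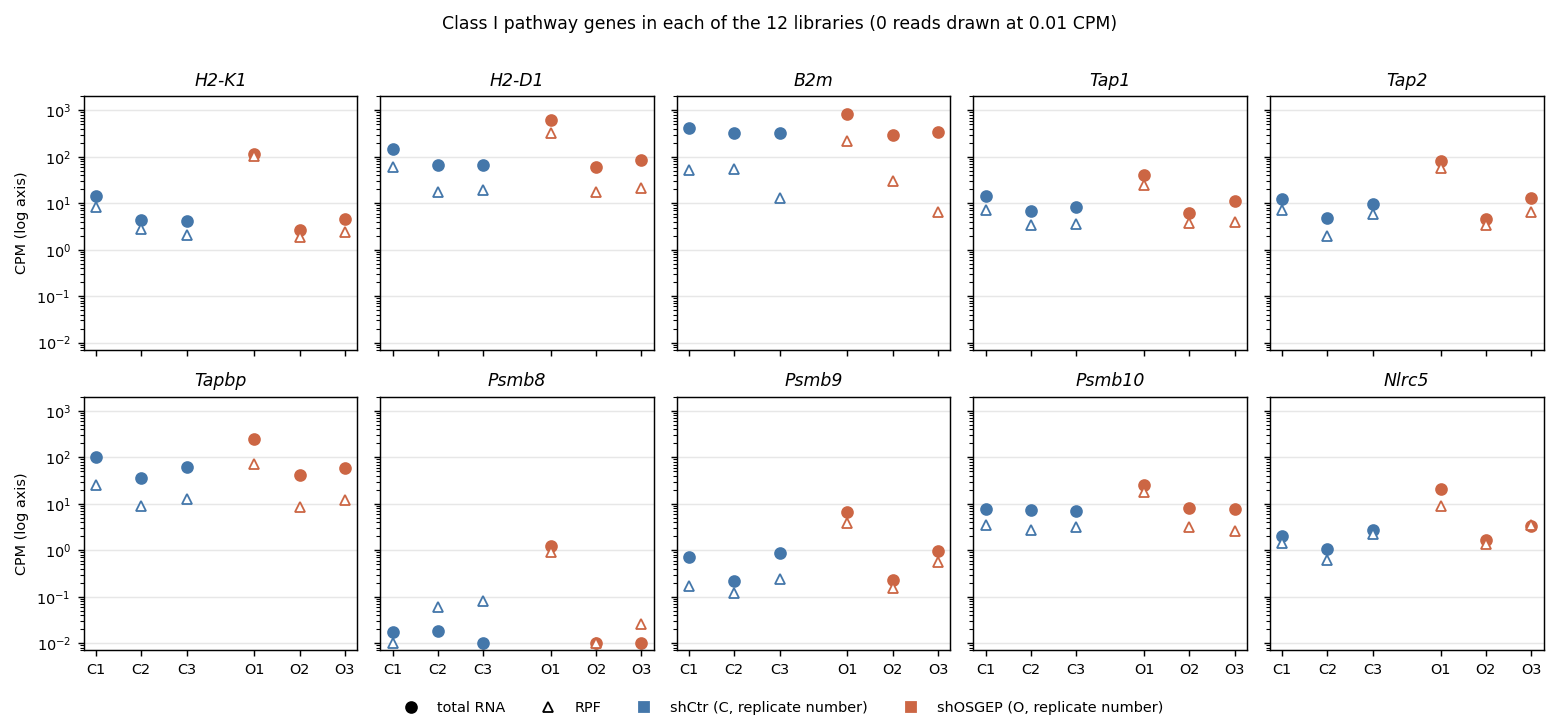
CPM on a log axis of each class I pathway gene in each of the 12 libraries, with total RNA as filled circles and RPF as open triangles, shCtr as C and shOSGEP as O with the replicate number. In total RNA shOSGEP replicate 1 is the highest library for all 10 genes, and the other 2 shOSGEP libraries lie in or near the range of the controls.

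The comparison of shOSGEP with shCtr asked whether the class I pathway differs between the genotypes across all replicates. No member passed the threshold of an adjusted p under 0.05 in edgeR. In total RNA 0 of the 9 members tested were called and 0.0% of all 14516 genes, and at an unadjusted p under 0.05 the counts were 0 members and 259 genes, or 1.78%. In RPF 0 of 8 members and 0.0% of 13529 genes were called, with 0 members and 139 genes, or 1.03%, at an unadjusted p under 0.05. These counts came from edgeR without the replicate block. With the block Nlrc5 in RPF had an unadjusted edgeR p of 0.030 (adjusted p = 0.817). In DESeq2 the unadjusted p was under 0.05 for Nlrc5, Tap2 and Psmb9 in total RNA and for Tap2 and Nlrc5 in RPF. Their DESeq2 adjusted p was at least 0.9998, and the share of genes was not computed for these fits. DESeq2 called 0 of the 8 members it gave a p in total RNA and 0 of 6 in RPF, with 8 genes called in all in total RNA and 1 in RPF. It gave no p for H2-K1 in either assay or for H2-D1 in RPF. The fitted change was nevertheless above 0 for 9 of 9 members in total RNA, against 53.1% of all genes, and for 8 of 8 in RPF, against 54.9%. Higher levels in 3 of 3 pairs were found for Psmb9, Psmb10 and Nlrc5 in total RNA, 3 of 9 against 17.7% of all genes, and for H2-D1, Tap1, Tap2 and Nlrc5 in RPF, 4 of 8 against 15.6%. No member was higher without overlap of the groups in RPF, where this held for 2.43% of genes.

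By replicate, the median log2 difference of the 9 members tested in total RNA was 2.08, −0.085 and 0.15 for replicates 1, 2 and 3. In replicate 1 all 9 were higher in shOSGEP, by 1.04 for B2m to 3.31 for Nlrc5 on the log2 scale. In replicate 2, 4 of 9 were higher, and in replicate 3, 8 of 9, by at most 0.40 for Tap2. Over all genes tested in total RNA, 50.4%, 52.0% and 50.3% were higher in replicates 1, 2 and 3. For the 8 members tested in RPF the medians were 2.38, 0.070 and 0.13, with 8, 5 and 5 higher. Over all genes tested in RPF, 49.3%, 49.3% and 49.9% were higher. The size of the fitted changes was thus set by replicate 1. Adding the replicate number as a block lowered all of them, without calling any member in either assay. The median over members was 1.44 in total RNA and 0.73 with the replicate block, against 0.021 over all genes without the block, and H2-K1 went from 2.40 to 0.77 (SE 0.81, edgeR adjusted p = 0.756). In RPF the median went from 1.48 to 0.78 with the replicate block, against 0.045 over all genes without it, and H2-K1 from 3.03 to 1.11 (SE 0.88, adjusted p = 0.817). The blocked fit called 0.00689% of genes in total RNA, the single gene Cdsn, and 0.0% in RPF. Without the shOSGEP replicate 1 library the median over members was −0.16 in total RNA and −0.45 in RPF, and without replicate 1 in either genotype it was 0.093 and 0.012.

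**Figure D3:**
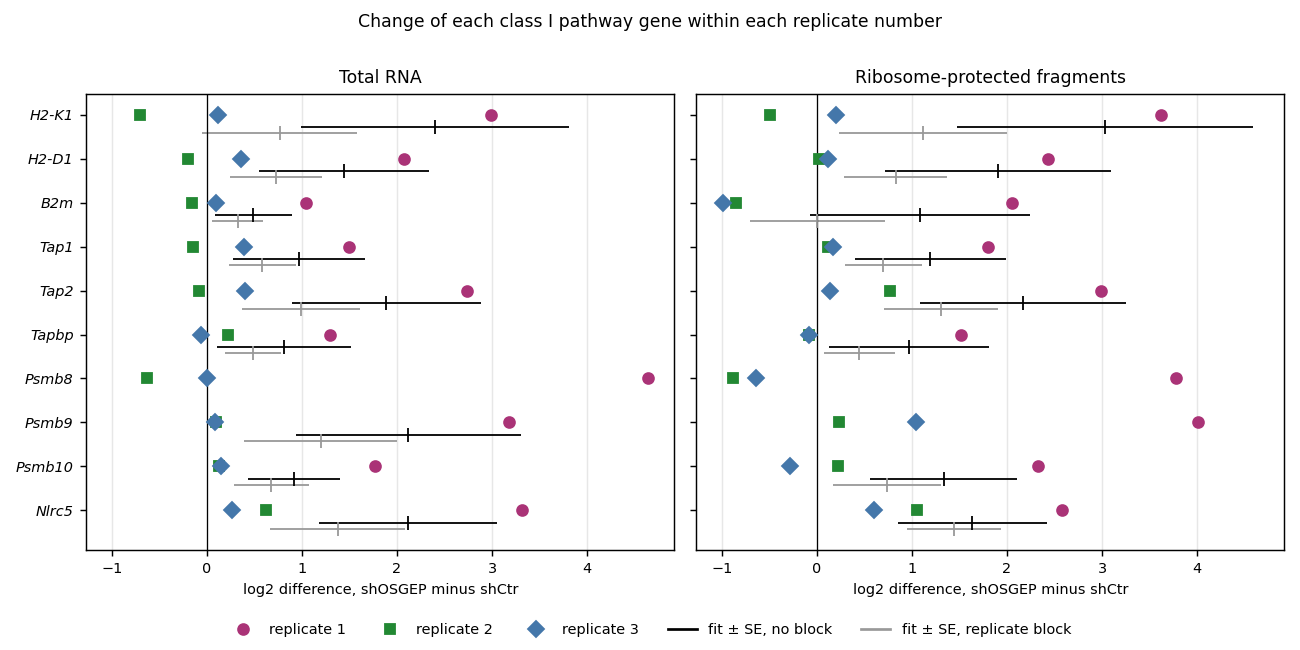
Log2 difference in CPM between shOSGEP and shCtr libraries of the same replicate number, for total RNA (left) and RPF (right), with the edgeR log2 change ± SE without (black) and with (grey) the replicate block. Replicate 1 lies between 1.04 and 4.63 in total RNA, while replicates 2 and 3 lie between −0.70 and 0.62.

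The low-count filter mattered in RPF. With no filter, 33633 genes were tested, 0.681% of them were called, and 3 of the 10 members were among these, H2-K1 (log2 change 2.88, edgeR adjusted p = 5.19e-09), Tap2 (2.02, adjusted p = 0.000305) and H2-D1 (1.76, adjusted p = 0.00999). The log2 changes of these 3 were close to those with the filter, and the SE of H2-K1 was 0.42 in place of 1.55. All 3 were highest in shOSGEP replicate 1. Without that library the log2 changes with the filter were −1.02 for H2-K1, −0.051 for Tap2 and −0.76 for H2-D1.

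The control cells of replicate 1 also stood apart for class I genes. In total RNA shCtr replicate 1 was the highest control for 7 of the 10 members, and the members were above the mean of the other controls by a median of 0.74 on the log2 scale, from 0.066 for Psmb10 to 1.76 for H2-K1. Over all genes tested this median was 0.0037, and replicate 1 was the highest control for 33.4% of genes. In RPF the median was 0.99, with 6 of 10 members highest in replicate 1, against a median of 0.011 and 32.2% over all genes. For 6 of 10 members in total RNA and 7 of 10 in RPF, shCtr replicate 1 lay above both shOSGEP replicates 2 and 3. Among the 6 is Psmb8, with 1 read against 0 and 0, and the share over all genes was not computed for this count. In total RNA the step from the mean of the other controls to shCtr replicate 1 was compared with the genotype differences of replicates 2 and 3. It was wider than either for H2-K1, H2-D1, B2m, Tap1, Tap2, Tapbp and Psmb9. Among the shOSGEP samples replicate 1 also had the lowest melanocyte markers in both assays, the least Osgep in total RNA and the most Osgep in RPF, and the part of either in the class I values was not tested.

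The balance between members also moved. H2-K1 made up 8.92%, 6.01% and 5.86% of the reads of both heavy chains in shCtr total RNA and 15.5%, 4.31% and 4.99% in shOSGEP. In RPF the shares were 12.01%, 13.8% and 9.54% in shCtr and 23.8%, 9.94% and 10.1% in shOSGEP. H2-D1 was the major heavy chain in every library, and the share of H2-K1 was highest in shOSGEP replicate 1 in both assays. B2m per kb over the sum of both heavy chains per kb was 7.76, 13.6 and 13.9 in shCtr total RNA and 3.55, 14.3 and 11.7 in shOSGEP. Light chain transcript thus exceeded heavy chain transcript per length in all 6 total RNA libraries, least so in both libraries of replicate 1. In RPF the ratio was 2.43, 8.71 and 1.89 in shCtr and 1.62, 4.96 and 0.871 in shOSGEP, lowest in replicate 3 of both genotypes.

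The share of the inducible subunit in each proteasome pair gave the same picture. Psmb10 made up 10.7%, 9.22% and 9.68% of Psmb10 plus its constitutive counterpart Psmb7, per kb, in shCtr total RNA and 24.9%, 9.36% and 10.5% in shOSGEP. Psmb9 made up 0.333%, 0.0989% and 0.488% of Psmb9 plus Psmb6 in shCtr and 2.67%, 0.0971% and 0.519% in shOSGEP. Psmb8 did not exceed 0.301% of Psmb8 plus Psmb5 in any total RNA library. The constitutive subunit was the major one of each pair in every total RNA library. Psmb7 itself measured 127, 147 and 132 CPM in shCtr and 156, 158 and 134 CPM in shOSGEP.

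**Figure D4:**
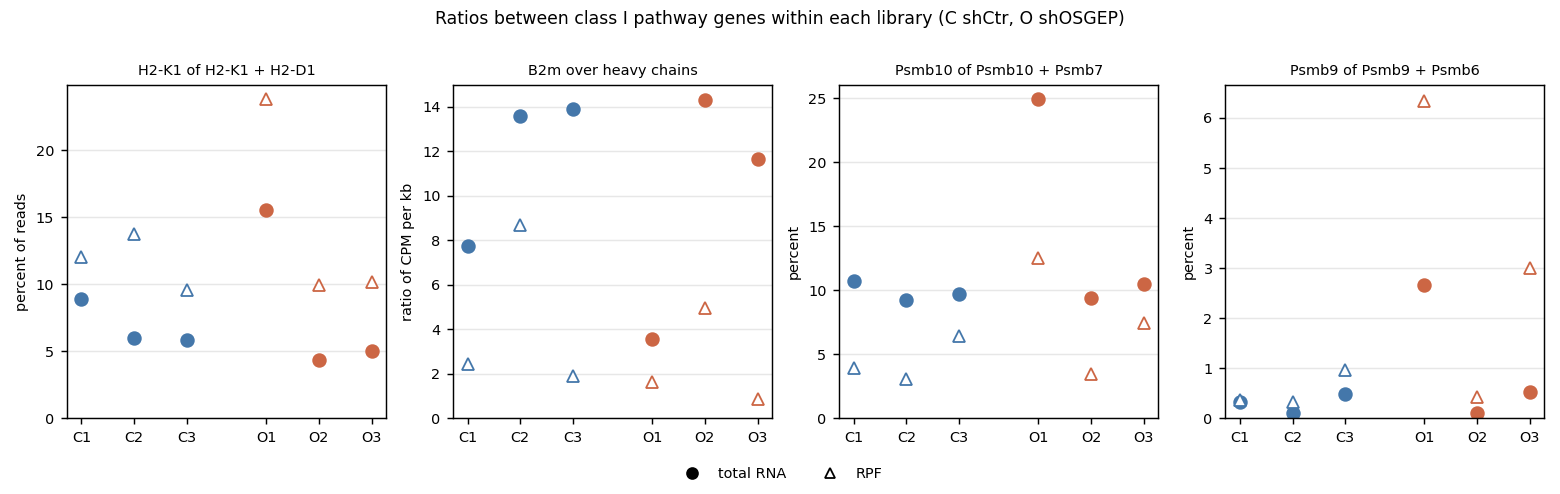
Ratios within each library for shCtr (C) and shOSGEP (O) by replicate number, with total RNA as filled circles and RPF as open triangles. From left to right the panels give H2-K1 as percent of heavy chain reads, B2m over the heavy chains in CPM per kb, and the percent of Psmb10 and of Psmb9 in its pair per kb, and shOSGEP replicate 1 is highest in the 3 panels given in percent in both assays and lowest for B2m in total RNA.

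Footprints per transcript were compared next, as the log2 ratio of RPF to total RNA CPM in each cell sample. CPM are scaled within each assay, so this ratio has no absolute meaning and is read between samples for the same gene. In shCtr the ratio was −0.80 ± 0.15 for H2-K1 (SD, n = 3) and −1.67 ± 0.36 for H2-D1. It was −1.07 ± 0.12 for Tap1, −0.92 ± 0.29 for Tap2 and −2.06 ± 0.16 for Tapbp. For Psmb10 it was −1.22 ± 0.20 and for Nlrc5 −0.49 ± 0.22. B2m was lowest and most variable, at −2.99, −2.60 and −4.65 in shCtr and −1.98, −3.30 and −5.73 in shOSGEP. No gene length enters this ratio, so its order between genes also depends on how much of each transcript is coding. Coding sequence made up 6028 of 8493 merged exon bases for Nlrc5 and 1182 of 2938 for H2-K1. Per kb in shCtr, H2-K1 was at 3.69 in RPF and 2.60 in total RNA. For Nlrc5 these levels were 0.235 and 0.231 CPM per kb.

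The change in translational efficiency, an interaction term of both assays with the genotype, was called for 0 of 8 members and 0.0% of 12560 genes, and 0.135% of genes had an unadjusted p under 0.05, none of them a member. The fitted log2 changes ran from −0.51 (SE 1.29) for Nlrc5 to 0.61 (SE 2.19, edgeR adjusted p = 0.99999) for H2-K1, and were above 0 for 7 of 8 members against 49.6% of genes. H2-K1 was the only member higher in shOSGEP in 3 of 3 pairs, by 0.63, 0.21 and 0.090, and this held for 11.6% of genes. Replicates did not move together, since 7, 6 and 2 of the 8 members were higher in replicates 1, 2 and 3. Over all genes tested the shares were 50.9%, 47.8% and 47.9%. The pairing of both assays by cell sample in the model, a replicate block of 6 terms, gave smaller errors and changes, such as 0.32 (SE 0.25) for H2-K1, 0.10 (SE 0.33) for H2-D1 and 0.26 (SE 0.26) for Tap2. In that fit B2m (−0.22, SE 0.99), Tapbp (−0.043, SE 0.22) and Nlrc5 (0.0037, SE 0.35) changed sign. In replicate 1 the log2 difference in footprints exceeded that in transcripts by 0.22 (Tapbp) to 0.63 (H2-K1) for 6 of the 8 members. For B2m it did so by 1.01, about as much as its transcripts differed (1.04). For Nlrc5 the footprint difference was the smaller one, 2.58 against 3.31 for transcripts.

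**Figure D5:**
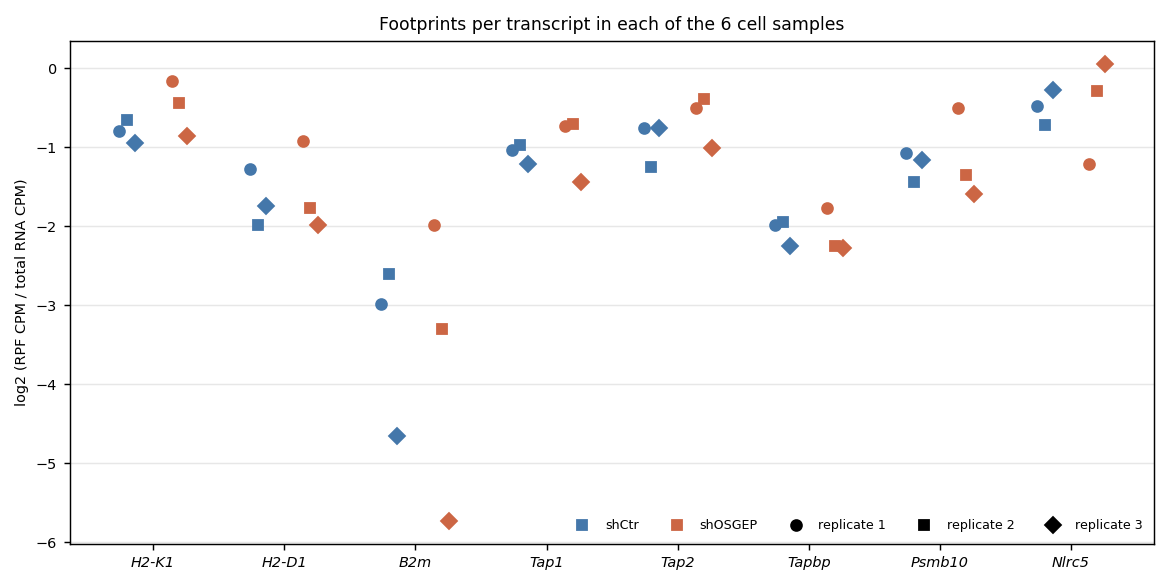
Log2 ratio of RPF CPM to total RNA CPM for the 8 members tested in both assays, in each of the 6 cell samples, with colour for the genotype and symbol for the replicate. The genotypes overlap for all 8 genes, and B2m spans from −5.73 to −1.98.

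Other genes of the pathway were described by lists. Of 16 further class I chains 5 were tested in total RNA, 0 were called in either direction, and their median log2 change was 1.04, with 1.88, −0.081 and 0.26 by replicate. H2-T22, a nonclassical chain, measured 16.8, 13.1 and 15.0 CPM in shCtr and 64.1, 13.8 and 14.4 CPM in shOSGEP, and H2-Q4 measured 19.1, 9.62 and 13.6 CPM in shCtr and 70.3, 9.09 and 14.9 CPM in shOSGEP. H2-M3, which presents formylated peptides, measured 1.55, 0.829 and 1.16 CPM against 6.38, 0.788 and 1.77 CPM. Mr1, which presents vitamin B metabolites, measured 29.1, 22.6 and 19.4 CPM against 39.5, 19.1 and 24.9 CPM. These 4 chains were each highest in shOSGEP replicate 1, and the fitted change was above 0 for 4 of the 5 tested.

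Among the 10 genes of peptide loading and trimming, 0 were called and the median log2 change was −0.029. The chaperone Calr measured 1328, 1600 and 1020 CPM in shCtr and 603, 1305 and 1146 CPM in shOSGEP. The trimming enzyme Erap1 measured 11.7, 12.9 and 13.0 CPM in shCtr and 41.0, 18.1 and 15.6 CPM in shOSGEP (log2 change 0.99, SE 0.38, edgeR adjusted p = 0.975). Lnpep, an aminopeptidase of endosomes, measured 306, 292 and 359 CPM against 599, 374 and 415 CPM, and Tapbpl, a tapasin relative, 8.73, 6.88 and 6.12 CPM against 29.4, 6.43 and 6.76 CPM. Of these 4 genes, Calr was lowest and the other 3 were highest in shOSGEP replicate 1. For Erap1 and Lnpep shOSGEP was above shCtr without overlap, as for 4.0% of the 14516 genes tested in total RNA. Of the 7 proteasome partners 0 were called, with a median of 0.12. Psme2, a subunit of the interferon-inducible proteasome activator, measured 16.4, 11.3 and 14.5 CPM against 51.8, 13.4 and 13.7 CPM, and its partner Psme1 49.1, 38.9 and 50.9 CPM against 97.5, 41.4 and 47.3 CPM.

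Of 11 class I promoter regulators 0 were called and the median log2 change was 0.095. Irf1, an interferon-induced activator of class I genes, measured 13.1, 11.8 and 22.8 CPM in shCtr total RNA and 50.7, 15.7 and 21.8 CPM in shOSGEP, a log2 change of 0.89 (SE 0.48, edgeR adjusted p = 0.975). Irf2 measured 17.4, 18.3 and 19.9 CPM against 33.9, 19.4 and 21.5 CPM, and Nfkb1, a kappa B factor, 72.1, 74.2 and 98.4 CPM against 131, 97.1 and 91.9 CPM. Rfx5, a subunit of the factor that binds the X box, measured 20.0, 15.2 and 21.5 CPM against 27.1, 21.1 and 18.9 CPM. Of 7 MHC class II genes 3 were tested and 0 called. Cd74, the invariant chain, measured 5.95, 1.91 and 1.74 CPM against 108, 3.06 and 13.3 CPM, a log2 change of 3.70 (SE 1.29, edgeR adjusted p = 0.975).

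Immune cells carry class I and its inducible proteasome at high level, so their markers were checked. The 8 immune cell markers summed to 1.21 to 1.41 CPM in shCtr total RNA and 1.12 to 2.01 CPM in shOSGEP, with Cd3e, Itgam and Itgax at 0 in all 6 libraries. The highest sum was that of shOSGEP replicate 1. Lyz2, a lysozyme of myeloid cells, measured 0.697, 0.630 and 0.765 CPM in shCtr and 1.32, 0.581 and 1.08 CPM in shOSGEP. Cd79a, the only other marker tested, measured 0.408, 0.666 and 0.641 CPM in shCtr and 0.0930, 0.543 and 0.287 CPM in shOSGEP. It was lower in shOSGEP in each pair, and lowest in replicate 1. The part of these markers in the class I values was not tested. The 5 fibroblast and endothelial markers summed to 6.70 to 8.93 CPM in shCtr and 10.2 to 25.4 CPM in shOSGEP, with Cdh5 at 0. Of these, Col1a1 measured 1.12, 0.540 and 0.537 CPM against 15.3, 0.620 and 2.69 CPM. Col1a2 went the other way in replicate 1, with 3.42, 3.44 and 1.47 CPM against 1.26, 5.36 and 2.28 CPM. Pdgfra measured 4.27, 3.24 and 4.51 CPM against 8.65, 4.12 and 5.37 CPM. Pecam1 measured 0.119, 0.180 and 0.186 CPM against 0.217, 0.116 and 0.135 CPM. The part of these markers was not tested either.

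Finally, genes outside these lists were ranked by likeness to the class I pattern, as the Pearson correlation over the 6 total RNA libraries between their log2 CPM and the mean standardised log2 CPM of the 9 members tested. Among 11201 genes the closest were Oas1g (r = 0.999, and 0.918 over the 6 RPF libraries), Parp14 (0.999 and 0.984), Ifitm3 (0.999 and 0.971), Unc93b1 (0.998 and 0.941) and Vwa5a (0.998 and 0.895). Parp14 measured 14.5, 4.90 and 8.80 CPM in shCtr and 116, 4.74 and 9.77 CPM in shOSGEP, and Ifitm3 89.8, 48.1 and 65.5 CPM against 423, 42.2 and 74.3 CPM. The members themselves correlated with their own mean at 0.933 for Psmb10 to 0.989 for Tap1. All points share the high shOSGEP replicate 1 library, 7.37% of genes searched had a correlation over 0.95, and the value is a description only.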

How the data were processed

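Libraries of RPF and of total RNA were made from B16F10 cultures. Per the study's methods, footprints were captured with a puromycin analogue and gel-selected before library preparation. The deposited values were whole-number read counts per Ensembl gene with no normalisation, as the authors made them after trimming with Trim Galore 0.6.6 and Cutadapt, checks with FastQC 0.11.9 and alignment with STAR. The submitters' notes name GRCm38 and GRCm39 without roles. For RNA sequencing of these cells the study's methods give an Illumina TruSeq poly(A) kit and STAR with Salmon on GRCm38, and for footprints STAR on the coding transcriptome. Whether those steps made the deposited tables is unclear, since every library carries the footprint protocol in the labels and the RPF table also holds ribosomal RNA. The use of strand and of reads with several matches is not given in the sources used here, and reads of near-identical class I genes can be split or lost. Symbols and GRCm38 coordinates came from GENCODE M21, which held 55227 of 55487 gene IDs and all 10 members.

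Groups and replicate numbers came from the labels. The study states independent transductions for its experiments, and where replicates share more than that, p-values measure only the spread between these samples. No 2 libraries of a group agreed within sampling noise (chi-square per degree of freedom of at least 81.1). Counts were fitted in R 4.3.3 with edgeR 4.0.16 (filterByExpr, TMM, quasi-likelihood test, Benjamini-Hochberg adjustment, threshold 0.05), RPF and total RNA separately. Translational efficiency was the assay by genotype interaction over 12 libraries for genes kept in both. All members are named in every library. From each further list at most 4 genes are named, those with the smallest unadjusted p in total RNA. One gene of the list of class I promoter regulators is not reported here, and that list's counts and median leave it out. Members and lists were chosen with earlier results of these data known. Log2 CPM used a prior count of 2, ratios used CPM and were left out when either library had 3 reads or fewer. Levels per kb used merged exons for total RNA and merged coding sequence for RPF. The tests were also run on simulated counts. Those had the same spread for every gene, no pairing and no outlying library, so they do not show how the tests behave on these data.

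Same-numbered libraries of both genotypes deviated together from their group means (r across genes of 0.515, 0.542 and 0.287 between total RNA libraries numbered 1, 2 and 3, with 0.586, 0.508 and 0.665 between RPF libraries), so the replicate numbers pair the samples. The study's methods name no block, and the fits with the replicate block are alternatives. Other alternatives were size factors, filters, protein-coding genes only, DESeq2 1.42.0 and leaving out libraries or pairs.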

Additional observations from a re-analysis of the deposited data

How the results depend on the processing

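No member was called under any alternative except in RPF with no filter on low counts, where 3 members and 229 genes in all were called. DESeq2 gave no p, and so no test, for H2-K1 in total RNA, RPF and translational efficiency and for H2-D1 in RPF. Genes called in all were 8 by DESeq2 and 1 with the replicate block in total RNA, and 1 by DESeq2 in RPF (Gm29374). An unadjusted p under 0.05 with an absolute log2 change over 0.5, the thresholds of the study, gave 223 genes in total RNA, 139 in RPF and 17 for translational efficiency. Scaling, filter, gene set and DESeq2 alternatives turned no member. The replicate block by cell sample turned the translational efficiency of B2m (−0.22), Tapbp (−0.043) and Nlrc5 (0.0037), and turned no member in total RNA or RPF. Merged exon length against longest coding sequence kept the rank of 6 of 10 members, with Tap1 and Tap2, and Nlrc5 and Psmb9, changing places.

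Leaving out 1 library gave a median over members of −0.16 to 1.92 in total RNA, −0.45 to 2.06 in RPF and −0.14 to 0.49 for translational efficiency. The low end was always without shOSGEP replicate 1, which turned 7 of 9, 7 of 8 and 7 of 8 members. Psmb9 footprints passed the filter without shCtr replicate 1, 2 or 3, or without shOSGEP replicate 2. The medians of those settings in RPF and for translational efficiency therefore include Psmb9. Both high ends there, without shOSGEP replicate 2, are among them. In total RNA the members turned by it ranged over −1.11 to 3.25 (H2-K1), −0.39 to 1.92 (H2-D1), −0.16 to 0.75 (B2m), −0.22 to 1.38 (Tap1), −0.053 to 2.40 (Tap2), −0.39 to 1.25 (Tapbp) and −0.057 to 2.66 (Psmb9). In RPF they ranged over −1.02 to 3.88 (H2-K1), −0.76 to 2.72 (H2-D1), −1.13 to 1.63 (B2m), −0.28 to 1.60 (Tap1), −0.051 to 2.66 (Tap2), −0.61 to 1.47 (Tapbp) and −0.14 to 1.75 (Psmb10). For translational efficiency they ranged over −0.37 to 0.78 (H2-D1), −0.98 to 0.94 (B2m), −0.063 to 0.33 (Tap1), −0.00036 to 0.32 (Tap2), −0.21 to 0.22 (Tapbp), −0.26 to 0.54 (Psmb10) and −0.73 to 0.36 (Nlrc5).

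Without replicate 1 in both genotypes the medians were 0.093 in total RNA, 0.012 in RPF and −0.036 for translational efficiency. This turned H2-K1 (−0.26) and B2m (−0.033) in total RNA, and H2-K1 (−0.16), B2m (−0.88), Tapbp (−0.10) and Psmb10 (−0.037) in RPF. It also turned the translational efficiency of H2-D1 (−0.036), B2m (−0.85), Tap1 (−0.037), Tapbp (−0.15), Psmb10 (−0.18) and Nlrc5 (0.31). The cause was not tested. Psmb8 and Psmb9 footprints rested on too few reads to pass the filter when all libraries were kept.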
